A study of Mus musculus with 18 samples.

Results

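The cytosolic J-domain genes described here are Dnaja1, Dnaja2, Dnaja4, Dnajb1, Dnajb2, Dnajb4, Dnajb5, Dnajb6, Dnajc5 and Dnajc7, 10 genes taken by symbol from the 20207 listed in each of 18 mRNA-seq files. The libraries came from NIH3T3, an established mouse fibroblast line, carrying the FKBP-derived destabilizing domain joined to superfolder GFP (DD-GFP) and sorted for high expression of it. There were 3 libraries for each of 6 groups, which were unstressed control cells (0 min), heat stress (HS) for 45 or 135 min, and tunicamycin (Tu) for 45, 135 or 405 min. The ligand S1, which keeps the destabilizing domain folded, was present in all 6 groups. The sorted cells are 1 population of 1 line. The labels number the replicates without saying whether they were separate cultures, so p-values measure only the spread between these libraries, which may be technical.

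J-domain proteins, also called HSP40s, bring unfolded clients to HSP70 and use their J domain to stimulate the HSP70 ATPase, so that the client is held. Class A members keep the zinc-finger layout of bacterial DnaJ, class B members lack the zinc finger but keep a glycine-rich stretch, and class C members share little beyond the J domain. In fibroblasts the cytosolic members serve the constitutive Hspa8 and the heat-inducible Hspa1a and Hspa1b. Heat activates Hsf1, which binds heat shock elements in the promoters of chaperone genes. Tunicamycin blocks N-linked glycosylation and burdens the endoplasmic reticulum (ER), whose own J-domain proteins serve Hspa5.

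Each file gives a read count and an RPKM value (reads scaled by the length of the gene model and by library size) for every gene. Totals ran from 33415592 to 66478268 reads, so that 3 reads were 0.0451 to 0.0898 CPM (counts scaled to a common library size). Fold changes below come from counts tested with edgeR. The test covered the 12731 genes that none of the 18 libraries listed at 0 reads, all 10 members included, and a gene is said to rise or fall when its Benjamini-Hochberg adjusted p was under 0.05. CPM values are scaled by TMM and serve to compare samples, and RPKM is the only scale used to compare genes with each other. Bulk RNA cannot separate fewer cells expressing a gene from less RNA per cell. All 7 fibroblast markers were present (Col1a1 at 649.3 to 4096.0 RPKM), and no epithelial or endothelial marker exceeded 0.24 RPKM. Of the leukocyte markers Cd68 lay at 3.72 to 7.61 RPKM, Ptprc at no more than 0.00532 and Emr1 at 0, and the muscle genes Des and Myod1 reached at most 0.39 and 0.0259 RPKM. The stresses left their marks on Hspa1b at HS 135 min and on the ER stress genes Hspa5 and Ddit3 at Tu 405 min, with log2 fold changes of 7.24 (SE 0.651), 3.73 (SE 0.154) and 5.22 (SE 0.186). Hspa5 and Ddit3 also rose at HS 135 min (0.96 and 2.32), so they do not mark tunicamycin alone. Hspa5 was not called at Tu 45 min (0.45) or Tu 135 min (-0.72). Ddit3 rose at Tu 45 min (2.92) and was not called at Tu 135 min (1.54).

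A further property of the files touches 3 members. Read count divided by RPKM returns the length of the gene model, and that length varied by more than 5% between files for 485 of the tested genes (3.81%). For Dnajb2 it was 3732 to 3734 bases in 7 files, 2347 or 2348 bases in 7 and 2282 to 2284 bases in 4. The latter 11 files lie within 5% of each other and are called the shorter model, and the longer one was used in HS 45 min replicates 1 and 2, HS 135 min replicates 2 and 3 and all Tu 135 min libraries. For Dnajb6 it was 1370 or 1371 bases in 6 files (control replicates 1 and 2, all HS 135 min libraries and Tu 45 min replicate 1) and 3313 or 3314 bases in the other 12. For Dnajb4 only HS 45 min replicate 2 differed, with 3306 instead of 3011 to 3014 bases. A check took 335 genes with a varying model and at least 50 reads in every library. Among them 557 pairs of replicates differed in model length by over 0.5 on the log2 scale. In these pairs the longer model had more reads by a median of 0.84 on the log2 scale. The median length ratio was 0.93, while the RPKM ratio had a median of -0.09. Counts of Dnajb2 and Dnajb6 are therefore given together with RPKM and with a fit that takes the model length as an offset, an alternative chosen after seeing the data.

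On mm9 the class A genes lie at chr4:40669566-40681997 (Dnaja1), chr8:88061539-88079170 (Dnaja2) and chr9:54547366-54564119 (Dnaja4). The class B genes lie at chr8:86132074-86135801 (Dnajb1), chr1:75232998-75242265 (Dnajb2), chr3:151846919-151856807 (Dnajb4) and chr4:42965966-42971604 (Dnajb5). Dnajb6 begins at 30062438 on chromosome 5 and ends at 30084508 in the shorter model and at 30113018 in the longer one. The class C genes lie at chr2:181255210-181286954 (Dnajc5) and chr11:100444150-100481482 (Dnajc7).

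In unstressed cells the 10 genes spanned a wide range of RPKM. Dnaja2, a general class A cochaperone of Hspa8, was highest at 44.9 ± 14.7 (SD, n = 3), followed by Dnajc7, a tetratricopeptide cochaperone that binds both HSP70 and HSP90, at 35.1 ± 13. Dnaja1, the other abundant class A gene, followed at 31.8 ± 8.14, and Dnajb6, an inhibitor of protein aggregation, at 25.1 ± 4.75. Dnajb1, the classic heat-inducible class B cochaperone, stood at 24.7 ± 3.42, and Dnajc5, the vesicle-bound cysteine string protein, at 24.3 ± 1.27. The ranges of these first 6 genes overlapped from each to the next in the order. Dnajb2, which carries ubiquitin-interacting motifs, lay apart below them at 10.9 ± 0.687. Dnajb4 was at 4.52 ± 1.78, Dnajb5 at 3.17 ± 0.395 and Dnaja4 at 1.54 ± 0.152. Control replicate 1 held the lowest value for 8 of the 10 genes, among them Dnaja2 (27.9 against 52.4 and 54.4) and Dnajc7 (20.1 against 42.1 and 43.2).

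**Figure D1:**
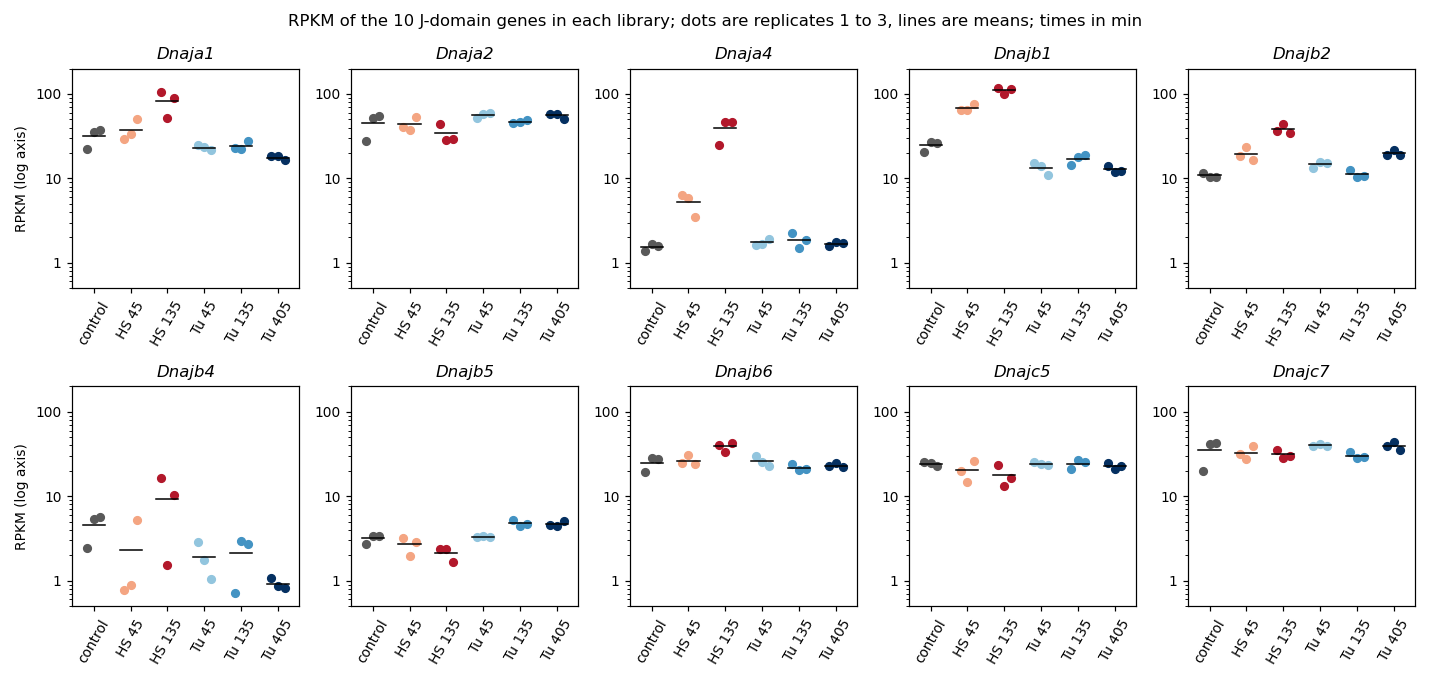
RPKM of each of the 10 genes in each of the 18 libraries on a common log axis, by group, where dots are replicates and lines are means of 3. Dnaja4 moves from 1.37 to 1.67 in the controls to 24.7 to 46.3 at HS 135 min, while Dnajb4 reads 1.53 in a single HS 135 min library and 10.4 and 16.3 in the other two.

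At 135 min of heat stress 4 of the 10 genes rose and none of the 10 fell in edgeR, against 7.39% of all tested genes called and 4.75% called higher. They were Dnaja4, Dnajb2, Dnajb1 and Dnaja1, so that both class A and class B were represented and class C was not. The count of members lower was also 0 at an unadjusted p under 0.05 and in DESeq2, against 1721 and 927 of all 12731 tested genes. The median log2 fold change was 0.71 over the members and -0.02 over all tested genes.

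Dnaja4, the least abundant member in unstressed cells, had the largest change. Its controls held 5.02, 5.8 and 5.33 CPM and its HS 135 min libraries 87.7, 204.9 and 188.3 CPM. The groups lay far apart, with the lowest heat library well above every control. The change was 29.7-fold, a log2 fold change of 4.89 (SE 0.373, adjusted p = 0.00485 in edgeR). By RPKM the gene ranked last of the 10 in all 3 controls and 7th, 3rd and 3rd in HS 135 min replicates 1, 2 and 3.

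Dnajb1 went from 57.4, 70.4 and 68.3 CPM in the controls to 317.1, 331.9 and 353.3 CPM, a 5.11-fold change. The 3 heat libraries were close to each other. The log2 fold change was 2.35 (SE 0.194, adjusted p = 0.00534 in edgeR), and leaving out any single library kept the call for Dnajb1 and for Dnaja4. Dnajb1 was the member with the highest RPKM in every library of both heat groups, with 98.7 to 118.4 at 135 min against 20.8 to 26.9 in the controls.

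Dnajb2 went from 26.6, 23.3 and 22.9 CPM to 82.5, 198.5 and 140.9 CPM, with both longer-model libraries being the higher ones. Its RPKM, 36.4, 43.8 and 34.1 against 11.7, 10.5 and 10.5 in the controls, was more even and left the groups equally apart. The log2 fold change was 2.53 on counts (SE 0.329, adjusted p = 0.0127 in edgeR) and 2.01 with the model length as an offset (adjusted p = 0.0106). The call on counts was lost without control replicate 2 (2.51, adjusted p = 0.0866 in edgeR), control replicate 3 (2.49, adjusted p = 0.086) or HS 135 min replicate 3 (2.53, adjusted p = 0.0815). Dnaja1 went from 90.7, 137.5 and 140.3 CPM to 415.9, 253.5 and 402.0 CPM. Its groups did not overlap, and its log2 fold change was 1.54 (SE 0.279, adjusted p = 0.0237 in edgeR). That call was lost without control replicate 1 (1.38, adjusted p = 0.0593 in edgeR), control replicate 2 (1.63, adjusted p = 0.111), control replicate 3 (1.65, adjusted p = 0.116) or HS 135 min replicate 3 (1.45, adjusted p = 0.126). The fits without control replicate 2, control replicate 3 and HS 135 min replicate 3 called 0.118, 0.0864 and 0.0864% of all tested genes. With control replicate 1 left out the share was 4.26%, and in the full set 7.39%.

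Dnajb4, a class B gene close in sequence family to Dnajb1, behaved unevenly. Its HS 135 min libraries held 47.4, 5.58 and 34.7 CPM against 7.43, 15.2 and 16.1 in the controls, so that replicates 1 and 3 lay above every control and replicate 2 below them all. The log2 fold change was 1.18 (SE 0.676, adjusted p = 0.273 in edgeR). Without HS 135 min replicate 2 it was 1.70 (adjusted p = 0.0148 in edgeR) and without replicate 1 it was 0.64. HS 135 min replicate 2 lay farthest of the 18 libraries toward GC-rich genes on the main axis of within-group spread, which held 74.7% of that spread and followed gene GC content with a Spearman rho of 0.69 across genes. Dnajb4 transcripts are 40.9% GC, against a median of 50.6% over the tested genes, and with a GC offset its log2 fold change was 1.55 (adjusted p = 0.0488 in edgeR). Dnaja1 and Dnaja2 transcripts are about as poor in GC, at 41.2% and 41.7%. Whether GC content shaped the Dnajb4 values was not tested.

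Dnajb6 held 26.8, 36.6 and 84.3 CPM in the controls and 54.2, 55.1 and 65.2 CPM at HS 135 min, which overlapped, with a log2 fold change of 0.24 (SE 0.403, adjusted p = 0.713 in edgeR). The high control is the only one counted on the longer model. Its RPKM did separate the groups, with 40.9, 33.1 and 43.0 against 19.6, 28.2 and 27.3, and with the length offset the log2 fold change was 0.83 (adjusted p = 0.0528 in edgeR), which misses the threshold.

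The remaining 4 genes had log2 fold changes close to 0 at HS 135 min and overlapping groups. Dnajc7 read 0.03 (SE 0.283), Dnaja2 -0.21 (SE 0.269), Dnajc5 -0.30 (SE 0.202) and Dnajb5 -0.37 (SE 0.26), and none passed the threshold in edgeR, with adjusted p from 0.343 to 0.959. Among them were both class C genes and Dnaja2, the most abundant member in unstressed cells.

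**Figure D2:**
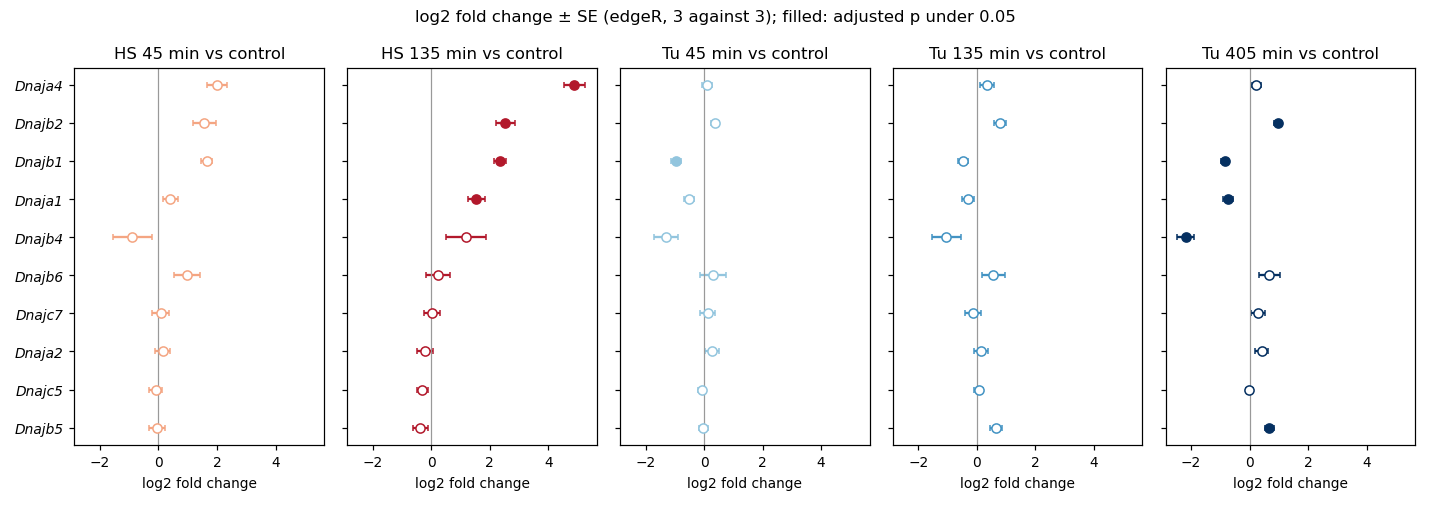
Log2 fold change ± SE of each gene against the 3 controls (edgeR, 3 against 3 libraries) in the 5 stressed groups, where filled points have an adjusted p under 0.05. The filled points are Dnaja4, Dnajb2, Dnajb1 and Dnaja1 at HS 135 min, Dnajb1 at Tu 45 min, and 5 genes at Tu 405 min, of which Dnajb2 and Dnajb5 are higher.

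At 45 min of heat stress no gene at all passed the threshold (0.0% of the tested genes). Of the members 0 were called by edgeR, and 3 were higher and none lower at an unadjusted p under 0.05 (12.3% and 7.16% of all tested genes). DESeq2 called the same 3, Dnaja4, Dnajb1 and Dnajb2, among 386 higher genes. Dnajb1 held 204.4, 213.6 and 196.5 CPM, far above the controls, with a log2 fold change of 1.65 (SE 0.191, adjusted p = 0.192 in edgeR). Dnaja4 held 26.6, 25.8 and 12.1 CPM, also above all controls, with a log2 fold change of 2.0 (SE 0.349, adjusted p = 0.227 in edgeR). Dnajb2 held 77.6, 103.7 and 35.4 CPM, and its log2 fold change was 1.57 on counts (SE 0.379, adjusted p = 0.227 in edgeR), 1.03 with the length offset, 0.83 with the GC offset and 0.82 with the GC offset and replicate block. HS 45 min replicate 3 was the library farthest toward GC-poor genes. Without it these values were 1.68, 2.28 and 1.90, with adjusted p of 0.000981, 0.00066 and 0.00103 in edgeR, and 4 members were called, 3 higher and 1 lower, but 45.4% of all tested genes were called in that fit, so 4 of 10 is near its background. The lower one was Dnajb4, which held 2.69 and 3.48 CPM in replicates 1 and 2 but 14.7 in replicate 3, for a log2 fold change of -0.89 over all 3 (SE 0.663, adjusted p = 0.399 in edgeR). Dnajb6 held 93.5, 122.1 and 74.1 CPM at HS 45 min, all counted on the longer model, and its RPKM of 24.7, 30.9 and 23.9 overlapped the controls. The other 5 genes had log2 fold changes of -0.10 to 0.41, with groups that overlapped the controls.

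From 45 to 135 min of heat the test again called no gene (0.0%). Of the members edgeR called 0, while 3 were higher and 1 lower at an unadjusted p under 0.05 (5.17% and 6.46% of all tested genes). DESeq2 called Dnaja1, Dnaja4 and Dnajb1 higher, among 194 higher genes. The lower member was Dnajb6 (-0.77, unadjusted p = 0.0153 in edgeR), counted on the longer model at 45 min and on the shorter at 135 min. Its RPKM went the other way without overlap, from 24.7, 30.9 and 23.9 to 40.9, 33.1 and 43.0. Dnaja4 had a log2 fold change of 2.85 between the times (SE 0.452, adjusted p = 0.157 in edgeR), without overlap. Dnajb1 differed by 0.66 (SE 0.165, adjusted p = 0.236 in edgeR), also without overlap. Dnaja1 held 137.2, 160.7 and 192.5 CPM at 45 min, which overlapped the controls, and its log2 fold change from 45 to 135 min was 1.09 (SE 0.272, adjusted p = 0.236 in edgeR).

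**Figure D3:**
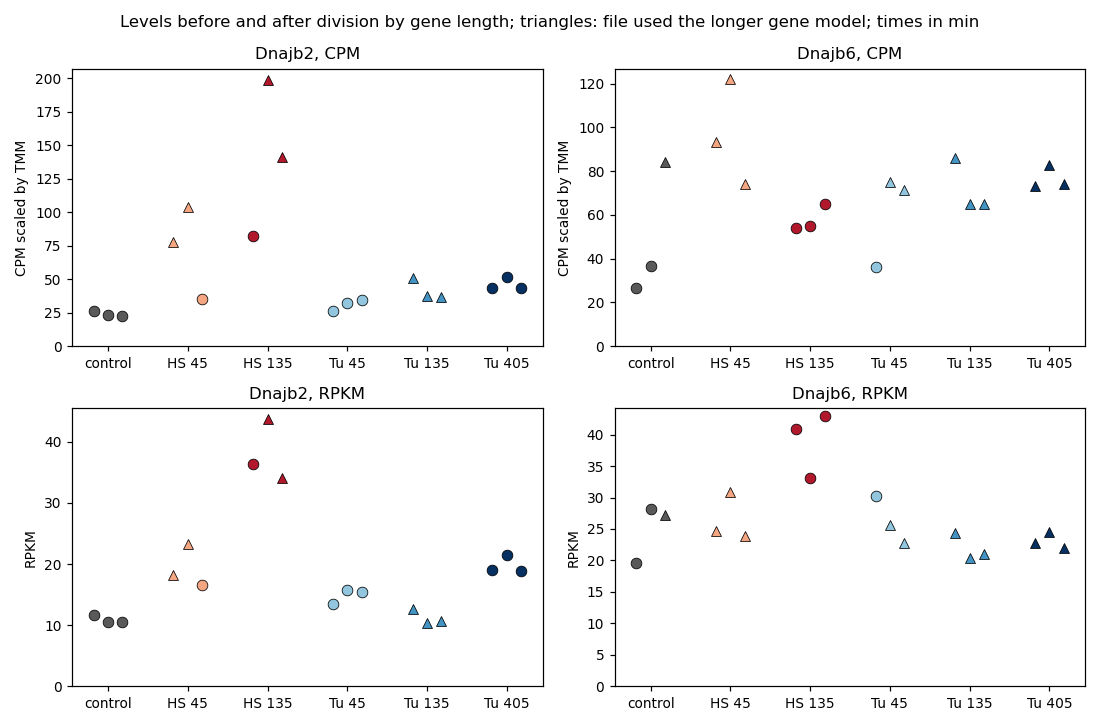
Dnajb2 (left) and Dnajb6 (right) in each library as TMM-scaled CPM (top) and as RPKM (bottom), with triangles for files that used the longer gene model and circles for the shorter. In RPKM the Dnajb2 controls lie at 10.5 to 11.7 and HS 135 min at 34.1 to 43.8, and the Dnajb6 control of 84.3 CPM becomes 27.3 RPKM, within the range of the other controls.

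After 405 min of tunicamycin 2 members rose, Dnajb2 and Dnajb5, and 3 fell, Dnajb4, Dnajb1 and Dnaja1. In this comparison 46.8% of all tested genes were called, 23.3% higher and 23.5% lower, so 5 of 10 is close to the background. None of the 5 calls was lost when any single library was left out.

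Dnajb4 had the largest change, from 7.43, 15.2 and 16.1 CPM to 3.12, 2.68 and 2.52 CPM. All 3 tunicamycin libraries lay below the lowest control. The log2 fold change was -2.19 (SE 0.29, adjusted p = 0.000616 in edgeR). Dnajb1 went from 57.4, 70.4 and 68.3 CPM to 38.2, 33.8 and 34.4 CPM, with a log2 fold change of -0.86 (SE 0.128, adjusted p = 0.00109 in edgeR). Dnaja1 went from 90.7, 137.5 and 140.3 CPM to 72.2, 75.5 and 67.2 CPM, with a log2 fold change of -0.75 (SE 0.174, adjusted p = 0.00828 in edgeR). In both genes every tunicamycin library lay below every control.

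Dnajb2 went from 26.6, 23.3 and 22.9 CPM to 43.4, 51.6 and 43.8 CPM at Tu 405 min, with a log2 fold change of 0.95 (SE 0.135, adjusted p = 0.000874 in edgeR). All 6 files used Dnajb2 models within 5% of each other in length, and RPKM, 19.1, 21.5 and 18.9 against 11.7, 10.5 and 10.5, showed the same separation. Dnajb5, a low-abundance class B gene, went from 7.63, 9.03 and 8.94 CPM to 12.5, 12.9 and 14.8 CPM, with a log2 fold change of 0.67 (SE 0.147, adjusted p = 0.00665 in edgeR). Dnajb2 is thus higher after both stresses in these libraries, while Dnajb1 and Dnaja1 were higher after heat and lower after tunicamycin. Both sets of comparisons use the same 3 controls.

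Dnajb6 had a log2 fold change of 0.67 on counts at Tu 405 min (SE 0.367, adjusted p = 0.169 in edgeR) and -0.02 with the length offset, and its RPKM of 22.8, 24.5 and 22.0 lay inside the control range. Without control replicate 3, the only control on the longer model, the count value was 1.28 (adjusted p = 0.00188 in edgeR). Dnaja2 read 0.41 (SE 0.217, adjusted p = 0.155 in edgeR), with 196.8, 206.5 and 177.0 CPM just above the highest control of 175.8. With the GC offset it was called higher (0.55, adjusted p = 0.00635 in edgeR), also with the replicate block added (0.56, adjusted p = 0.00659). Dnajc7 (0.28, SE 0.25), Dnaja4 (0.22, SE 0.151) and Dnajc5 (-0.01, SE 0.121) were not called, and their groups overlapped the controls. Dnaja4, at 5.66, 6.54 and 6.39 CPM, stayed close to the control level of 5.02 to 5.8 CPM.

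Earlier in the tunicamycin course little was called among the members. At 45 min, where 6.17% of tested genes were called and 2.17% were lower, Dnajb1 alone of the 10 changed, with 36.5, 34.5 and 28.7 CPM and a log2 fold change of -0.96 (SE 0.156, adjusted p = 0.0173 in edgeR). That call was lost without control replicate 2 (-0.90, adjusted p = 0.0823 in edgeR), control replicate 3 (-0.93, adjusted p = 0.086), Tu 45 min replicate 1 (-1.03, adjusted p = 0.0512) or Tu 45 min replicate 2 (-0.99, adjusted p = 0.104). Those fits called 0.801, 0.754, 1.67 and 0.456% of all tested genes. Without control replicate 1 the number of members called was 3, with 19.6% of all tested genes called. Dnajb4 held 7.6, 4.71 and 2.98 CPM, a log2 fold change of -1.31 (SE 0.406, adjusted p = 0.096 in edgeR), and DESeq2 called it lower together with Dnajb1. At Tu 135 min, where 0.134% of tested genes were called, edgeR called 0 members, 2 were higher and 1 lower at an unadjusted p under 0.05 (10.1% and 8.49% of all tested genes), and DESeq2 called Dnajb2 higher. Dnajb2 stood at 50.7, 37.3 and 37.1 CPM there, counted on the longer model, but its RPKM of 12.7, 10.4 and 10.7 overlapped the controls. Dnajb5 stood at 15.7, 12.0 and 12.3 CPM, above all controls, with a log2 fold change of 0.66 (SE 0.205, adjusted p = 0.17 in edgeR).

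Between tunicamycin times, the step from 45 to 135 min called 0 members in edgeR, with 0.291% of genes called, 3 members higher and none lower at an unadjusted p under 0.05 (8.1% and 7.69% of genes) and Dnajb5 called higher by DESeq2. Among the 3 was Dnajb2 (0.43, unadjusted p = 0.0406 in edgeR), counted on the shorter model at Tu 45 min and on the longer at Tu 135 min. Its RPKM went the other way without overlap, from 13.4, 15.7 and 15.4 to 12.7, 10.4 and 10.7. From 135 to 405 min, with 43.7% of genes called and 22.4% lower, Dnaja1 fell by 0.47 (SE 0.132, adjusted p = 0.022 in edgeR) and Dnajb1 fell by 0.40 (SE 0.129, adjusted p = 0.0364 in edgeR) on the log2 scale. Dnaja1 was no longer called without Tu 135 min replicate 3 or any of the Tu 405 min libraries (log2 fold changes of -0.51 to -0.40), and Dnajb1 without Tu 135 min replicate 2 or 3 or any of the Tu 405 min libraries (-0.46 to -0.36). The fits without a Tu 405 min library called 27.9 to 34.4% of all tested genes. Those without Tu 135 min replicate 2 or 3 called 34.2 and 36.0%. Without Tu 135 min replicate 1, 6 members were called, near the 63.8% of all tested genes called in that fit.

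Heat and tunicamycin were also compared directly at matched times, which leaves the controls out. At 45 min, with 0.204% of genes called and 0.0628% higher, Dnajb1 was higher under heat by a log2 fold change of 2.62 (SE 0.17, adjusted p = 0.0207 in edgeR). The call held only in the full set and without HS 45 min replicate 3 (adjusted p = 0.00021 in edgeR), where 5 members were called beside 55.7% of all tested genes. Leaving out any of the other 5 libraries gave log2 fold changes of 2.49 to 2.70 with adjusted p up to 0.264. Each of those 5 fits called 0.0% of all tested genes. At 135 min, with 2.12% of genes called and 1.3% higher, 3 members were higher under heat, namely Dnaja4 by 4.53 (SE 0.4, adjusted p = 0.0127 in edgeR), Dnajb1 by 2.82 (SE 0.169, adjusted p = 0.00716) and Dnaja1 by 1.84 (SE 0.234, adjusted p = 0.0224). Dnajb2 was higher by 1.73 (SE 0.335, adjusted p = 0.0541 in edgeR) on counts and by 1.89 with the length offset (adjusted p = 0.0211). Dnajb5 lay lower under heat in every library, by a log2 fold change of -1.03 (SE 0.256, adjusted p = 0.0873 in edgeR). The 3 calls at 135 min were all lost without Tu 135 min replicate 2, Tu 135 min replicate 3 or HS 135 min replicate 3, where the log2 fold changes were 4.36 to 4.49 for Dnaja4, 2.77 to 2.87 for Dnajb1 and 1.74 to 1.91 for Dnaja1. Each of those 3 fits called 0.0% of all tested genes. Without Tu 135 min replicate 1 the Dnajb1 call was kept (2.77, adjusted p = 0.0415 in edgeR) and those of Dnaja4 (4.74, adjusted p = 0.0604) and Dnaja1 (1.87, adjusted p = 0.0969) were lost. That fit called 0.0236% of all tested genes.

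Ordered by log2 fold change at HS 135 min, the family ran Dnaja4, Dnajb2, Dnajb1, Dnaja1, Dnajb4, Dnajb6, Dnajc7, Dnaja2, Dnajc5 and Dnajb5. Ordered at Tu 405 min, it ran Dnajb2, Dnajb5, Dnajb6, Dnaja2, Dnajc7, Dnaja4, Dnajc5, Dnaja1, Dnajb1 and Dnajb4. These orders are on counts, and the gene model length moves 2 genes in them. With the length offset Dnajb2 (2.01) came after Dnajb1 (2.35) at HS 135 min, and Dnajb6 (-0.02) came below Dnaja2 (0.41), Dnajc7 (0.28) and Dnaja4 (0.22) at Tu 405 min. Each gene was set against its neighbour by the log2 ratio of their counts within each library, compared between stressed and control libraries. The order was taken from the same libraries, so the direction of a difference was largely set beforehand and the comparison is a description only. Over the 18 neighbouring pairs the ranges were apart for 5, each with an exact permutation p of 0.1 (two-sided), as any separated pair has. These were Dnaja4 over Dnajb2, Dnajb1 over Dnaja1 and Dnajc7 over Dnaja2 at HS 135 min, and Dnajc5 over Dnaja1 and Dnajb1 over Dnajb4 at Tu 405 min. With RPKM in place of counts 8 of 18 were apart, of which 1, Dnajb6 and Dnaja2 at Tu 405 min, was apart in the opposite direction (a difference of -0.47), and without control replicate 3 the number on counts was also 8. Dnajb2 and Dnajb1 at HS 135 min overlapped (exact permutation p = 0.8, two-sided). With 3 against 3 libraries the smallest exact p is 0.1, so no pair could pass the threshold.

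Summed over the 10 genes, RPKM was 154.3, 231.2 and 232.6 in the controls, 239.6, 240.2 and 298.3 at HS 45 min and 448.3, 347.3 and 415.7 at HS 135 min. The sums in the tunicamycin groups ran from 181.6 to 209.2, within the range of the controls. The make-up shifted as well. Dnajb1 made up 13.5, 11.6 and 11.4% of the sum in the controls and 26.4, 28.4 and 27.7% at HS 135 min, and Dnaja4 went from 0.889, 0.724 and 0.671% to 5.51, 13.2 and 11.1%.

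**Figure D4:**
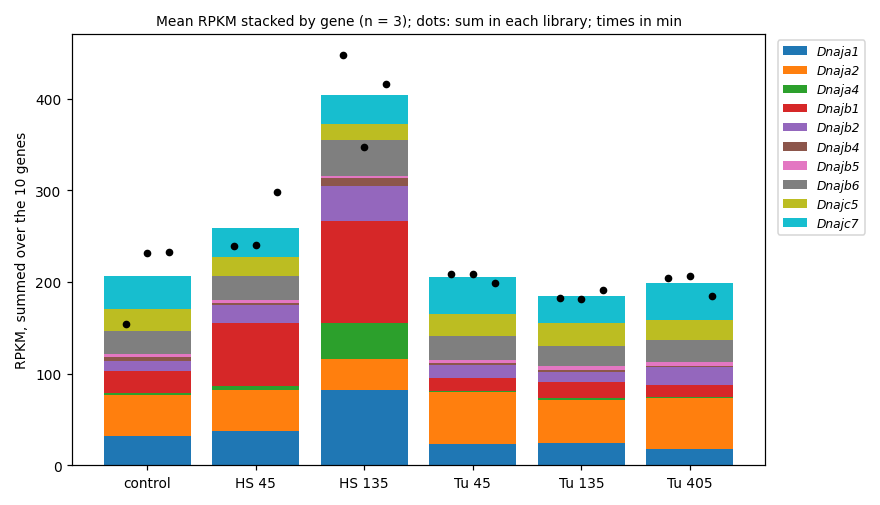
Mean RPKM of the 10 genes stacked by group (n = 3), with dots for the sum in each library. The HS 135 min sums of 347.3 to 448.3 all lie above the highest control of 232.6, and the red segment is Dnajb1.

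The HSP70s that these cochaperones serve were taken from a list of 9 cytosolic HSP70 and HSP110 genes. At HS 135 min 5 of 9 rose and none of 9 fell in edgeR, beside 4.75% of all tested genes higher, with a median log2 fold change of 0.99. None of the 9 was lower at an unadjusted p under 0.05 or in DESeq2, against 1721 and 927 of all 12731 tested genes. Hspa1b, the inducible HSP70, rose by 7.24 (SE 0.651, adjusted p = 0.0058 in edgeR), from 5.47 to 6.3 CPM in the controls to 262.8 to 1214.0 CPM, although its reads can be shared with the near-identical Hspa1a. Hsph1, the HSP110 nucleotide exchange factor, rose by 3.33 (SE 0.351, adjusted p = 0.00792 in edgeR). At Tu 405 min, where 23.5% of all tested genes were lower, 6 of the 9 fell, with a median log2 fold change of -0.99. None rose in edgeR or DESeq2, and 1 was higher at an unadjusted p under 0.05, beside 3467 of all tested genes. Hspa8, the constitutive HSP70, fell from 4205.0 to 4858.0 CPM in the controls to 1451.0 to 1644.0 CPM, a log2 fold change of -1.56 (SE 0.142, adjusted p = 0.000111 in edgeR). The shared fit of all 6 groups called 3 of the 9 lower there, Hspa8, Hspa1l and Hsph1, beside 2049 of all 12731 tested genes. At Tu 45 min, with 2.17% of all tested genes lower, 3 of the 9 fell, Hspa8 among them at -0.85 (SE 0.167, adjusted p = 0.0306 in edgeR). The shared fit called 1 of the 9 lower at Tu 45 min, Hspa8, beside 209 of all tested genes. The Hspa8 call at Tu 45 min was lost without control replicate 2 (-0.81), control replicate 3 (-0.83), Tu 45 min replicate 1 (-0.93), replicate 2 (-0.89) or replicate 3 (-0.73), with adjusted p up to 0.156 in edgeR. Those fits called 0.456 to 2.07% of all tested genes.

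A list of 12 genes held nucleotide exchange factors and HSP70 cochaperones without a J domain, and also the HSP90 genes Hsp90aa1 and Hsp90ab1. Of these 12, 4 rose at HS 135 min, Bag2, Bag3, St13 and Stip1, beside 4.75% of all tested genes higher. Bag3, which links HSP70 to autophagy, rose by 4.17 (SE 0.432, adjusted p = 0.00792 in edgeR). At Tu 405 min 3 rose (Bag3, Bag5 and Stub1) and Hsp90aa1 fell, a share below the 46.8% of all tested genes. The shared fit called Bag5 alone, as higher, beside 4057 of all tested genes called, 2008 of them higher. The calls at HS 135 min of Hsph1 and Bag3 were lost without control replicate 2 (3.45 and 4.25), control replicate 3 (3.36 and 4.16) or HS 135 min replicate 3 (3.30 and 3.99). Those fits called 0.118, 0.0864 and 0.0864% of all tested genes.

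The J-domain genes of other compartments were counted in the same way. Of 11 genes of the ER, edgeR called 0 at HS 135 min, and DESeq2 called Dnajc1 higher. There 3 were higher and 1 lower at an unadjusted p under 0.05, beside 2054 and 1721 of all 12731 tested genes. At Tu 405 min 5 of the 11 rose and 1 fell, with a median of 0.62, beside 23.3% of all tested genes higher and 23.5% lower. Dnajb9, a cochaperone of Hspa5 in ER-associated degradation, rose from 0.954 to 3.71 CPM in the controls to 49.5 to 65.1 CPM, a log2 fold change of 4.48 (SE 0.418, adjusted p = 0.000122 in edgeR). Dnajc3, the P58IPK inhibitor of eIF2-alpha kinases, rose by 3.48 (SE 0.177, adjusted p = 1.13e-05 in edgeR), and Dnajb11, which serves Hspa5 in folding, by 3.11 (SE 0.217, adjusted p = 3.5e-05). Of 8 mitochondrial J-domain genes, 4 rose at Tu 405 min, led by Dnaja3 at 1.40 (SE 0.138, adjusted p = 0.000153 in edgeR), against 0 called by edgeR at HS 135 min. At HS 135 min 3 of the 8 were higher and 1 lower at an unadjusted p under 0.05, beside the same 2054 and 1721 genes. DESeq2 called Dnajc28 higher and Dnajc15 lower there. Of 13 other cytosolic or nuclear J-domain genes, 12 were tested. Dnajc27 was the only one called at HS 135 min, at -1.47 (SE 0.222, adjusted p = 0.0183 in edgeR), a call lost without control replicate 2 (-1.46), control replicate 3 (-1.46) or HS 135 min replicate 3 (-1.44). Those fits called 0.118, 0.0864 and 0.0864% of all tested genes. At Tu 405 min 2 of these 12 rose and 2 fell, below the 46.8% of all tested genes called.

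The genes outside the family whose log2(CPM + 1) followed Dnaja4 most closely over the 18 libraries were Clu (Pearson r = 0.978), Sec14l1 (0.975), Bag3 (0.973), Mns1 (0.964) and Mt1 (0.963), out of 8269 candidates. The closest to Dnajb2 were Hs6st1 (0.967), Clip3 (0.965), Efnb1 (0.962), C1r (0.961) and Tnrc6c (0.96). These are descriptions over libraries that share depth and base composition, and the Dnajb2 counts also follow its gene model.

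The promoters were searched because several members moved together with heat. RefSeq promoter windows on GRCm38.p6, taken here as the 250 bases before each start, were on hand for 9 of the 10 genes (not for Dnajc5). A heat shock element of 2 units was spelled GAANNTTC or TTCNNGAA and searched on both strands, and was held by 12.8% of all 32851 windows and by 14.5% of 27025 genes in at least 1 window. Of the 9 members 4 held it, Dnaja1, Dnaja4, Dnajb4 and Dnajb6. The members had 1 to 3 windows each, and a gene with more windows has more room for a match. The 4 of 9 therefore cannot be set directly against the 14.5%. Dnajb6 held the same stretch in both of its overlapping windows, and in the other 3 genes only 1 window matched. The stretches are shown with the match in capitals, since Dnaja4 and Dnaja1 rose with heat and Dnajb4 and Dnajb6 missed the threshold on counts.
Dnaja1 (chr4:40722333-40722362, plus strand): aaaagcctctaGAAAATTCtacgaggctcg
Dnaja4 (chr9:54699458-54699487, plus strand): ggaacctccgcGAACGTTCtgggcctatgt
Dnaja4 (chr9:54699496-54699525, plus strand): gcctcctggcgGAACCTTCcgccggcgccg
Dnajb4 (chr3:152193846-152193875, minus strand): gttcgttcgttcgctgTTCTAGAAagtaca
Dnajb6 (chr5:29735844-29735873, plus strand): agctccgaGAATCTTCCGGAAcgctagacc

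The matches lay 124 to 117 bases before the first of 3 listed starts in Dnaja1, 90 to 83 and 52 to 45 bases before the second listed start in Dnaja4, 14 to 7 bases before the second in Dnajb4 and 46 to 34 bases before the first in Dnajb6. The Dnajb6 stretch also holds the longer 3-unit form, GAANNTTCNNGAA or TTCNNGAANNTTC, which overlaps the 2-unit form and was found in 0.466% of windows and 0.514% of genes. No match to either form was found in the windows of Dnajb1, Dnajb2, Dnaja2, Dnajb5 and Dnajc7, of which Dnajb1 and Dnajb2 rose with heat. The window before the first start of Dnajb1 is given for comparison, all in lower case because nothing in it matched.
Dnajb1 (chr8:83607925-83608174, plus strand): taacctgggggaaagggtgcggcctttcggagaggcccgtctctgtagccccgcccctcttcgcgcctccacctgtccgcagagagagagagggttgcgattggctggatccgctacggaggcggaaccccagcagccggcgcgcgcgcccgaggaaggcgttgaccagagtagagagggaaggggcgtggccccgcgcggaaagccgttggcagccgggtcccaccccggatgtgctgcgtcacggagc

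The matches are letters in a window, not bound sites, and their absence says only that these letters are not in these 250 bases. The ER stress element, spelled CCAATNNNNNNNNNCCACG or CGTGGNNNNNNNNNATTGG, was in none of the 9 members and in 0.113% of windows and 0.13% of genes.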

How the data were processed

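Polyadenylated RNA of 18 NIH3T3 samples was extracted with the RNeasy mini kit, sequenced on Illumina machines and, per the labels, processed by the authors against mm9 and RefSeq genes on the DNAnexus platform, with the aligner and counter used there not given in the sources used here. The deposited estimated count of each gene need not be whole (23.9 to 27.1% of values under 100 reads were not) and was rounded. The authors also deposited RPKM, and further columns that hold a score and a signal, which were not used. Libraries were grouped by the labels, 3 per group. Replicates differed by 16.1 to 894.1 times the counting noise (chi-square per degree of freedom), so none was counted as a second deposit of another. This does not show that they were separate cultures.

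Each pair of groups was tested in edgeR 4.0.16 (R 4.3.3, limma 3.58.1) by the quasi-likelihood test with TMM factors, 3 against 3, over genes with at least 1 read in all 18 libraries, with Benjamini-Hochberg adjustment over the 12731 genes. Neighbours in the order were compared by an exact permutation test written in Python 3.11.15 with NumPy 2.4.6. The steps were tested on simulated data. The alternatives were DESeq2 1.42.0, other filters and scalings, 1 fit over all 6 groups, a replicate block, a GC offset, an adjusted p under 0.01 and each library left out. The gene model length offset and the RPKM ratios were chosen after seeing the data. The 10 genes and the lists were chosen with earlier results of these data known. From each list, up to 4 genes per comparison are named, those called with the largest log2 fold change, no overlap with the controls and at least 50 reads in the higher group. Hspa1b, Hsph1, Hspa5 and Ddit3 are named as checks of the stresses. Likeness was taken for the member with the largest increase at HS 135 min (Dnaja4) and at Tu 405 min (Dnajb2), among genes of at least 10 CPM. Bag2, St13, Stip1, Bag5, Stub1, Hsp90aa1, Hspa1l, Dnajc1, Dnajc28 and Dnajc15 are named after their values were seen, to spell out small counts. The labels give no pairing of replicates across groups. Only between Tu 135 min and control did all same-numbered libraries deviate together (r = 0.342, 0.322 and 0.299), which does not show that they were paired. On the main axis of within-group spread replicate 1 lay toward GC-rich genes in both groups (17.92 in control, 41.2 at Tu 135 min), and replicates 2 and 3 lay on the other side. The blocked fit there called 0 members, as did the unblocked fit, with 2 higher and 1 lower at an unadjusted p under 0.05.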

Additional observations from a re-analysis of the deposited data

Results flagged for a closer look

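The responses to heat and to tunicamycin at the same time point differed by a direct test in 4 cases, which flagged them. Under heat at 45 min Dnajb1 stood above tunicamycin, with a log2 fold change of 2.62 (adjusted p = 0.0207 in edgeR), with 196.5 to 213.6 CPM against 28.7 to 36.5. At 135 min Dnajb1 was higher by 2.82 (adjusted p = 0.00716 in edgeR), with 317.1 to 353.3 CPM against 42.6 to 48.9. Dnaja4 was higher by 4.53 (adjusted p = 0.0127 in edgeR), with 87.7 to 204.9 CPM against 5.34 to 8.73. Dnaja1 was higher by 1.84 (adjusted p = 0.0224 in edgeR), with 253.5 to 415.9 CPM against 86.9 to 106.6. In all 4 cases every heat library lay above every tunicamycin library. Groups of 3 are too small for a search for outlying samples.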

How the results depend on the processing

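The settings were run on 34 of the 100 log2 fold changes of the members, among them all 10 genes at HS 135 min and Tu 405 min against control, and on 10 of other genes. Of these, 390 of 440 values under other settings and 204 of 264 with a library left out kept direction and side of the threshold. The 5 member calls at Tu 405 min held under all settings tried. Each number below is a count of members past the threshold. The number of all 12731 tested genes called in the same fit follows in brackets, except at an adjusted p under 0.01. DESeq2 gave 3 at HS 45 min (451), 2 at Tu 45 min (1843), 1 at Tu 135 min (639) and 3 between the heat times (403). It also gave 1 between Tu 45 and 135 min (622), 4 between the stresses at 45 min (1127) and 6 at 135 min (1256). A shared fit of all groups gave 3 at HS 45 min (1345), 1 at Tu 135 min (411), 3 between the heat times (905) and 1 from Tu 135 to 405 min (4505). Between the stresses it gave 4 at 45 min (1270) and 5 at 135 min (1771). The replicate block rests on numbers that the labels do not tie across groups. It gave 0 at HS 135 min (0), at Tu 45 min (21), from Tu 135 to 405 min (3750) and between the stresses at both times (0 and 0). The GC offset gave 2 at Tu 45 min (1929), 1 between Tu 45 and 135 min (333), 3 between the stresses at 45 min (416) and 6 at 135 min (1241). With the block added it gave 1 from Tu 135 to 405 min (5340) and 0 between the stresses at both times (0 and 0). An adjusted p under 0.01 gave 2 at HS 135 min, 0 at Tu 45 min, 0 from Tu 135 to 405 min, 0 between the stresses at 45 min and 1 at 135 min. No filter gave 1 from Tu 135 to 405 min (5634 of 16191 genes), and total counts gave 5 between the stresses at 135 min (484). RPKM ratios set 8 of 18 neighbouring pairs apart. The cause was not tested.

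With 1 library left out the count of members ran from 0 to 4 at HS 45 min, 2 to 5 at HS 135 min, 0 to 3 at Tu 45 min, 0 to 6 from Tu 135 to 405 min, 0 to 5 between the stresses at 45 min and 0 to 4 at 135 min. Those fits called 0.0 to 45.4% of all tested genes at HS 45 min and 0.0864 to 19.4% at HS 135 min. Their share was 0.456 to 19.6% at Tu 45 min and 27.9 to 63.8% from Tu 135 to 405 min. Between the stresses it was 0.0 to 55.7% at 45 min and 0.0 to 2.86% at 135 min. The neighbouring pairs apart ran from 5 to 8. At HS 135 min the log2 fold change of Dnaja2 was 0.47 with the GC offset and 0.40 with the block added. That of Dnajc7 was -0.15 on total counts and -0.23 to 0.18 with a library left out, and that of Dnajb6 ran from -0.04 to 0.88. At Tu 405 min Dnajb6 was -0.02 with the length offset. Dnajc5 there was 0.00 without the filter, 0.01 with the GC offset, 0.02 with the block added and -0.09 to 0.05 with a library left out. None of these 5 was called in the values of the report. Total counts moved the median of all genes to -0.19 at HS 45 and 135 min, 0.10 at Tu 45 min and -0.11 at Tu 405 min. At HS 135 min the number of all genes called, 941, was 0 with the block, 3243 in the shared fit and 11 to 2467 with a library left out. At 3 libraries per group and these depths, counting error was small beside the spread between libraries.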
